A study of Mus musculus with 36 samples.

Results

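The genes described here are 9 transcripts known from granulosa cells, the somatic cells that surround the oocyte in the ovarian follicle: Cyp19a1, Cyp11a1, Hsd3b1, Star, Fshr, Amh, Inha, Inhba and Foxl2. They were looked up by gene ID in the count table, where 9 of 9 were found among 21968 genes. They were chosen by their levels and their spread between oocytes, known from earlier results of these data, so both are given as descriptions with no test. The comparison between genotypes did not enter that choice.

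The study sequenced 36 single mouse oocytes at the germinal vesicle stage, the stage of arrest in prophase of the first meiotic division. The labels give the genotype as Drp1_KO for 18 oocytes of 4 mice, named a to d, and as Drp1_WT for 18 oocytes of 5 mice, named 1 to 5. Each mouse gave 3 to 5 oocytes. The labels give no strain, age, Cre driver or treatment, and they do not say how surrounding cells were removed. Oocytes are named here by the tube number in their titles and by their mouse.

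Granulosa cells respond to follicle-stimulating hormone through its receptor and convert androgen made by theca cells into oestrogen. Steroid synthesis runs from cholesterol, carried into mitochondria, through side-chain cleavage and further oxidation to aromatisation. Inhibin and activin, built from shared subunits, and anti-Müllerian hormone are their main secreted protein hormones. Cumulus cells are granulosa cells that reach the oocyte surface with thin projections and couple to it through gap junctions.

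Between 3178509 and 7406895 counts fell in each oocyte, and 11350 to 14659 genes had a count. Levels are CPM, a gene's counts scaled to a total of 1000000 for the same oocyte. At these depths a single count is worth 0.135 to 0.315 CPM and the floor used here, 3 counts, is worth 0.405 to 0.944 CPM. Library preparation kept no molecular identifiers, so counts are reads, not molecules, and intervals from counting cover counting error only. Dnm1l, the targeted gene, ran from 144 to 274 CPM in libraries labelled Drp1_KO and from 234 to 322 CPM in 13 libraries labelled Drp1_WT. It ran from 116 to 156 CPM in the other 5 libraries labelled Drp1_WT, tubes 11 to 15 of mice 3 and 4, which go against their label. Tube 10 of mouse b stood apart with a summed level of 561 CPM for 6 immune cell genes, against at most 7.99 CPM in any other oocyte. Mice d and 5 alone carry the tube numbers 27 to 30.

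All 12 genes of an oocyte list (Gdf9, Bmp15 and others) had a coefficient of variation (CV, the SD over the mean) under 0.5. They summed to at least 15505 CPM in every library. The lowest sum, in tube 10 of mouse b, was mostly Dppa3 (10822 CPM) and Oosp1 (3273 CPM). The other listed genes lay there below their range in the 35 other oocytes. Gdf9 stood at 126 CPM, the zona pellucida gene Zp3 at 13.5 CPM and Figla at 0 CPM. The lowest of the 35 other oocytes held 2590, 1814 and 40.2 CPM of these. Of the granulosa genes, Foxl2, the transcription factor that keeps ovarian identity in these cells, had 12 counts in all, at most 2 in an oocyte, and was at 0 in 25 of 36. Amh, anti-Müllerian hormone, had 19 counts in all, at most 5 in an oocyte, and was at 0 in 28 of 36. No oocyte reached 3 counts of Foxl2 and 3 oocytes reached 3 counts of Amh. The 7 other genes had 205 to 13008 counts in all. Foxl2 and Amh thus lay at or near the floor of the libraries. The 7 other genes reached 3 counts in from 21 (Inhba) to 36 (Cyp19a1) of 36 oocytes. The word "granulosa" here names where the 9 genes are known from, and the source of these reads was not tested.

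Of the 7 genes with a RefSeq window (Star and Amh have none), 3 carry the letters AGGTCA on either strand in the 250 bases before a start site. This hexamer is the core that NR5A receptors (Nr5a1 and Nr5a2, activators of steroidogenic genes) and other nuclear receptors bind. Of the 3 genes with a match, Inha and Cyp11a1 moved together between oocytes and Cyp19a1 did not move with them. Hsd3b1, which moved with both Inha and Cyp11a1, has no match. Windows at other starts of Cyp19a1 (54228914 and 54193743) and of Cyp11a1 (57998024) hold no match either. The stretches of 30 bases around the matches are shown. They are printed 5′ to 3′ along the gene's strand from RefSeq, GRCm38.p6, with the hexamer in capitals.
Inha: ttggggattggcAGGTCAactttgaagagt
Cyp19a1: agttggaatttgTGACCTctagaacccaag
Cyp11a1: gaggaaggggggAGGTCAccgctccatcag
The Inha stretch is chr1:75507528-75507557 on the plus strand, and its hexamer begins 69 bases before the start site at 75507609. The Cyp19a1 stretch is chr9:54268228-54268257 on the minus strand, and its hexamer, which reads AGGTCA on the opposite strand, begins 81 bases before the start at 54268164. The Cyp11a1 stretch is chr9:58014912-58014941 on the plus strand, and its hexamer begins 28 bases before the start at 58014952. The hexamer stands in 14% of 32851 RefSeq windows of that length and in at least 1 window of 15.8% of 27025 genes, and a match describes letters, not a bound site. The cyclic AMP response element TGACGTCA, present in 1.55% of the windows, was in none of the 10 windows of the 7 genes that have a window. In these oocytes Nr5a2 stood at 32.8 CPM and Nr5a1 at 0.28 CPM on average.

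Per kilobase of exon, the scale on which levels of different genes can be set side by side, Cyp19a1 led the 9 genes in every mouse. Its level was 13.7 ± 1.19 CPM per kb (SD, n = 9 mice), followed by Inha at 4.00 ± 2.57, Hsd3b1 at 2.38 ± 2.48 and Fshr at 1.74 ± 1.08. Cyp11a1 came next at 0.693 ± 0.724, then Star at 0.319 ± 0.129 and Inhba at 0.158 ± 0.118, with Amh at 0.0497 ± 0.0495 and Foxl2 at 0.0197 ± 0.0196 CPM per kb. Cyp19a1 lay above Inha in 9 of 9 mice, and its lowest mouse (11.7) lay above the highest mouse of any other member. Of the other neighbours, Fshr was above Cyp11a1, Star above Inhba and Inhba above Amh in 8 of 9 mice each. Inha was above Hsd3b1 in 7, Cyp11a1 above Star in 6 and Hsd3b1 above Fshr and Amh above Foxl2 in 5 of 9. Apart from Cyp19a1 over Inha and Star over Inhba, all neighbours have means that differ by less than the larger SD.

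Cyp19a1 (ENSMUSG00000032274, chromosome 9, 54165937 to 54268110, minus strand, GRCm38) encodes aromatase, which turns androgens into oestrogens. It was counted in 36 of 36 oocytes, from 41.2 CPM in tube 12 of mouse 3 to 86.2 CPM in tube 11 of mouse c, with a median of 61.5 CPM. Its highest oocyte held 2.09 times the lowest and 1.40 times the median. The CV over the oocytes was 0.197, against 0.0533 from counting alone, and within a mouse it was 0.170 ± 0.0827 (SD, n = 9 mice). Among 3058 genes with a mean of 0.5 to 2 times its own, the median CV was 0.251 and 20.5% had a lower one. By own totals, aromatase mRNA was therefore as even between oocytes as the steadier genes of its level, and no oocyte lacked it. With TMM factors per oocyte in place of own totals its CV was 0.261, and other genes were not compared on that scale.

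The 3 oocytes of mouse 1 held 50.2, 54.7 and 54.5 CPM of Cyp19a1, and the 3 oocytes of mouse 4 held 59.3, 62 and 57.7 CPM. Mouse 3 held 66.3, 61.7, 61.9, 41.8 and 41.2 CPM, with the lower pair in tubes 11 and 12. In mouse c the values were 86.2, 70.4, 45, 76.2 and 43.5 CPM, so this mouse alone held the highest and nearly the lowest oocyte. Mouse means ran from 53.1 CPM in mouse 1 to 68.9 CPM in mouse a. Tube 10 of mouse b, the library with immune transcripts, held 72.1 CPM.

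**Figure D1:**
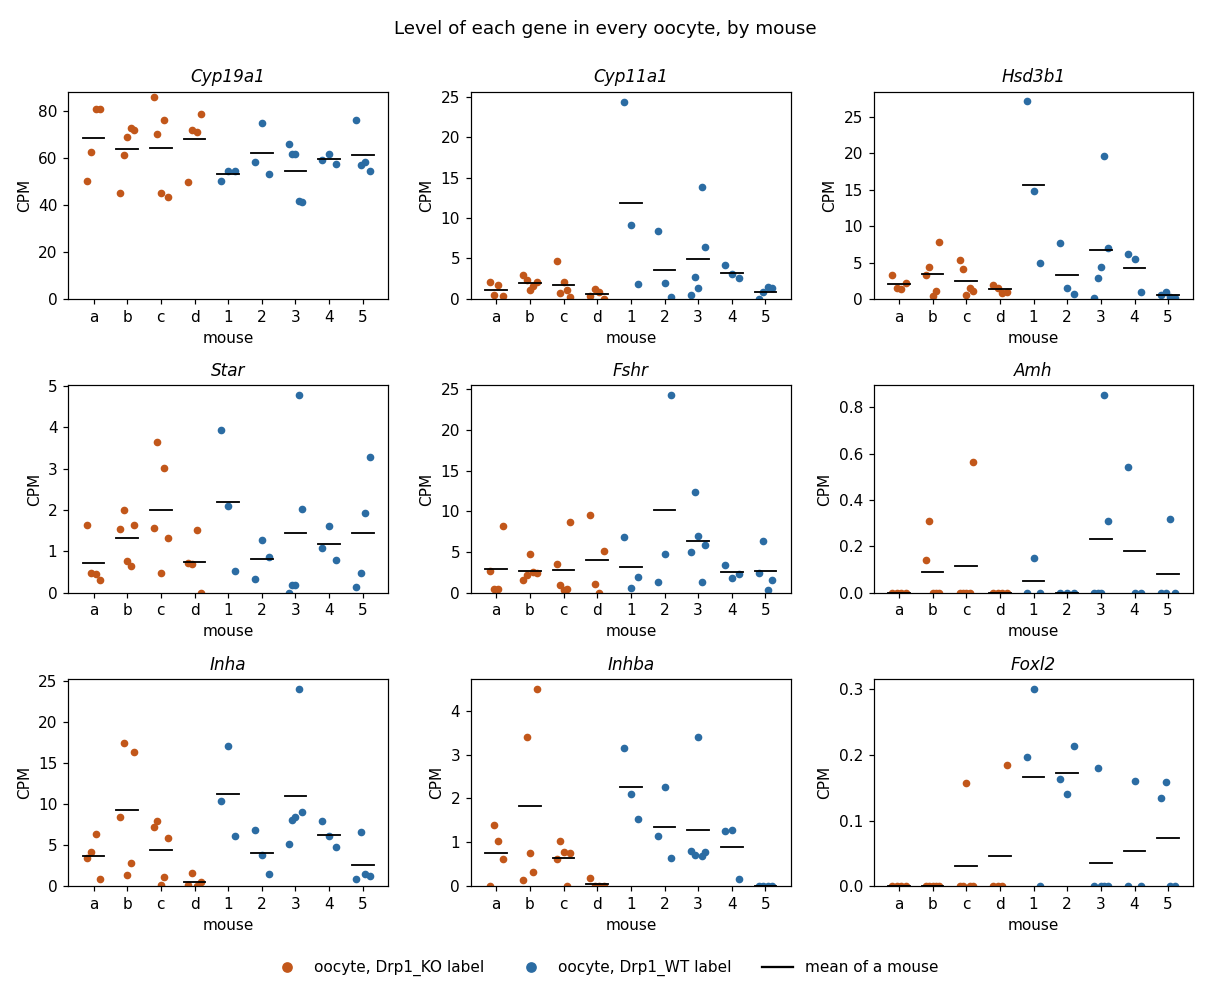
Levels of the 9 genes in CPM (vertical axes, a linear scale of its own for each gene, from 0), by mouse (horizontal axes; a to d are labelled Drp1_KO in orange, 1 to 5 Drp1_WT in blue). Each point is an oocyte and each bar the mean of a mouse. Cyp19a1 lies between 41.2 and 86.2 CPM throughout, while Cyp11a1 and Hsd3b1 have most oocytes near the bottom and a few far above.

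Cyp11a1 (ENSMUSG00000032323, chromosome 9, 58006411 to 58027023, plus strand) encodes the side-chain cleavage enzyme that opens steroid synthesis by making pregnenolone from cholesterol. Its median was 1.68 CPM and its highest oocyte, tube 1 of mouse 1, held 24.4 CPM, 14.6 times the median. The other high oocytes were tube 11 of mouse 3 at 13.8 CPM, tube 2 of mouse 1 at 9.16 CPM and tube 4 of mouse 2 at 8.35 CPM. Of the 36 oocytes, 2 had 0 counts and 30 had at least 3. Oocytes differed within animals, as mouse 1 held 24.4, 9.16 and 1.89 CPM and mouse 2 held 8.35, 1.98 and 0.213 CPM. They also differed between animals, with mouse means from 0.603 CPM in mouse d to 11.8 CPM in mouse 1. The CV was 1.53, against 0.24 from counting, and 99.0% of 2487 genes of similar level had a lower CV. A long non-coding gene, Gm17322, shares 145 exon bases (3.02%) with it on the same strand.

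Hsd3b1 (ENSMUSG00000027871, chromosome 3, 98852194 to 98859794, minus strand) encodes the dehydrogenase that converts pregnenolone to progesterone. It ran from 0.156 CPM in tube 30 of mouse 5 to 27.1 CPM in tube 1 of mouse 1, with a median of 1.76 CPM and 0 oocytes at 0 counts; the lowest value is a single count. Tube 11 of mouse 3 held 19.6 CPM and tube 2 of mouse 1 held 14.9 CPM, and every other oocyte held 7.77 CPM or less. The CV was 1.38, against 0.207 from counting, and 98.9% of 2603 genes of similar level had a lower CV. Its close relative Hsd3b6 stood at 6.67 CPM with a CV of 0.484. How the authors' counting split reads between such similar genes is not given in the sources used here, so the Hsd3b1 level is uncertain to that extent.

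Star (ENSMUSG00000031574, chromosome 8, 25806555 to 25815982, plus strand) encodes the protein that delivers cholesterol to the inner mitochondrial membrane, the step before side-chain cleavage. Its median was 0.97 CPM, with 2 oocytes at 0 counts and a highest oocyte of 4.77 CPM in tube 11 of mouse 3. Tube 1 of mouse 1 held 3.93 CPM, tube 12 of mouse c held 3.65 CPM and tube 30 of mouse 5 held 3.28 CPM. The CV was 0.885, against 0.364 from counting, and 80.0% of 2184 genes of similar level had a lower CV. Its highest oocyte was 4.92 times its median, against 14.6 times for Cyp11a1 and 15.5 times for Hsd3b1.

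Fshr (ENSMUSG00000032937, chromosome 17, 88984952 to 89200675, minus strand) encodes the receptor for follicle-stimulating hormone. Its median was 2.44 CPM and its highest oocyte was tube 6 of mouse 2 at 24.3 CPM, followed by tube 8 of mouse 3 at 12.4 CPM, tube 27 of mouse d at 9.59 CPM, tube 15 of mouse c at 8.65 CPM and tube 4 of mouse a at 8.18 CPM. These 5 oocytes came from 5 mice of both labels. Tube 6 of mouse 2 lay below the median for both steroidogenic enzymes above, with 0.213 CPM of Cyp11a1 and 0.638 CPM of Hsd3b1. The CV of Fshr was 1.15, against 0.210 from counting, and 98.1% of 2579 genes of similar level had a lower CV. Fshr varied about as much as the enzymes, but none of its 5 highest oocytes was among the 5 highest of either enzyme. Tube 1 of mouse 1, the highest oocyte for both enzymes, held 6.89 CPM of Fshr, above its median.

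Inha (ENSMUSG00000032968, chromosome 1, 75507077 to 75510366, plus strand) encodes the alpha subunit that defines inhibin, the hormone that lowers secretion of follicle-stimulating hormone. Its median was 5.50 CPM, with 1 oocyte at 0 counts, and its highest oocytes were tube 11 of mouse 3 at 24.0 CPM, tube 7 of mouse b at 17.5 CPM, tube 2 of mouse 1 at 17.1 CPM and tube 10 of mouse b at 16.3 CPM. The 4 oocytes of mouse d held 0.178, 1.56, 0 and 0.552 CPM, below the lowest oocyte of mouse 1 (6.17 CPM) and of mouse 4 (4.78 CPM). The CV was 0.929, against 0.171 from counting, and 97.6% of 2763 genes of similar level had a lower CV.

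Inhba (ENSMUSG00000041324, chromosome 13, 16011851 to 16031621, plus strand) encodes the beta A subunit, which pairs with itself as activin A and with the alpha subunit as inhibin A. It was near the floor, with a median of 0.735 CPM, 9 oocytes at 0 and 21 oocytes with at least 3 counts. Tube 10 of mouse b held the most, 4.5 CPM, and tube 7 of mouse b and tube 10 of mouse 3 held 3.40 CPM each. The 4 oocytes of mouse 5 had 0 counts. The CV was 1.14, against 0.423 from counting.

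Amh (ENSMUSG00000035262, chromosome 10, 80805243 to 80807648, plus strand) reached 0.852 CPM in tube 11 of mouse 3, its highest oocyte. Foxl2 (ENSMUSG00000050397, chromosome 9, 98955288 to 98958543, plus strand) reached 0.30 CPM, which is 2 counts, in tube 2 of mouse 1. At 12 and 19 counts in all, a spread between oocytes could not be told from counting for Foxl2, with a CV of 1.59 against 1.78 from counting, and rested on few counts for Amh (2.25 against 1.41). The antisense gene Foxl2os overlaps 12 exon bases (0.369%) of Foxl2.

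**Figure D2:**
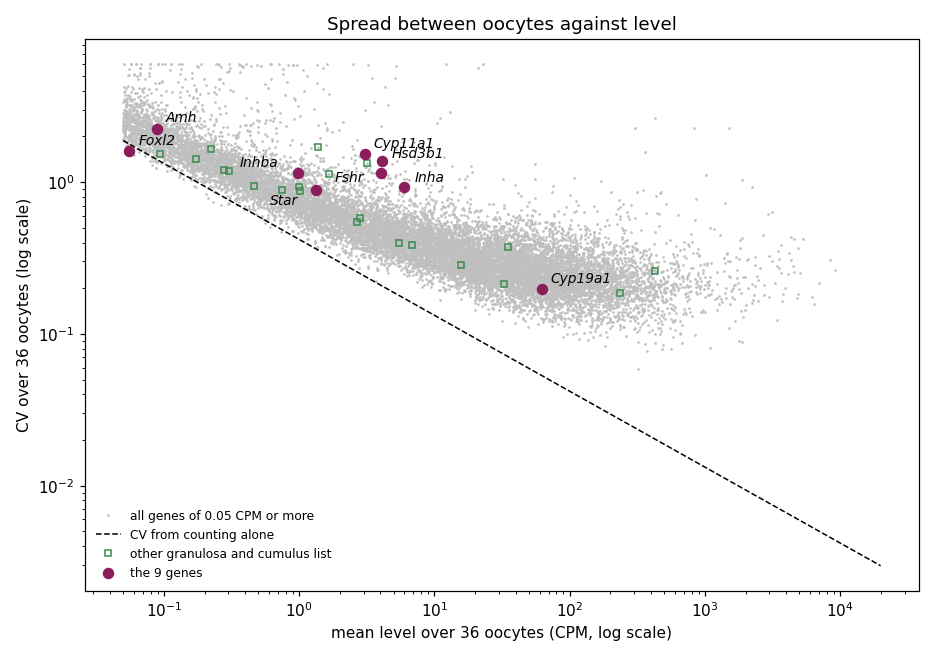
CV over 36 oocytes (vertical axis, log scale) against mean level in CPM (horizontal axis, log scale). Grey points are all genes of 0.05 CPM or more, the dashed line is the CV from counting alone, open squares are other granulosa genes and filled circles the 9 genes. Cyp19a1 (62 CPM, CV 0.197) lies inside the cloud of its level, while Cyp11a1, Hsd3b1, Fshr and Inha, at 3.05 to 5.99 CPM, lie along the upper edge of theirs with CVs of 0.929 to 1.53.

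The CVs of the members can be set beside those of all genes, as a description only, since spread chose the members. Over all 11512 genes with a mean of at least 1 CPM, the median CV was 0.331, 78.9% had a CV under 0.5 and 4.27% had one of at least 0.8. Of the 6 members at that level, only Cyp19a1 was under 0.5 and the other 5 were at 0.8 or above. The 8 genes other than Cyp19a1 summed to between 3.21 CPM in tube 29 of mouse d and 76.1 CPM in tube 1 of mouse 1, with a median of 15.6 CPM. Cyp19a1 accordingly made up from 39.1% of the CPM of the 9 genes in tube 11 of mouse 3 to 95.7% in tube 29 of mouse d, with a median of 79.4%. These shares divide CPM not corrected for gene length.

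Cyp11a1, Hsd3b1 and Inha were high in the same oocytes. Of the 5 highest oocytes of each, 3 were shared by all: tubes 1 and 2 of mouse 1 and tube 11 of mouse 3, which are labelled Drp1_WT. These 3 oocytes hold 41.9% of the counts of Cyp11a1, 41.4% of Hsd3b1 and 24.1% of Inha, shares that their choice raises. For the genes that did not choose them, beside 8.32% of all counts, they hold 22.0% of Star, 16.6% of Inhba, 31.6% of the 19 Amh counts, 25% of the 12 Foxl2 counts, 6.64% of Cyp19a1 and 5.98% of Fshr. Tube 11 of mouse 3 is also among the 5 libraries whose Dnm1l goes against the label.

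Ranked over the 36 oocytes, Hsd3b1 and Inha had a Spearman correlation of 0.76, Cyp11a1 and Hsd3b1 of 0.68, Cyp11a1 and Inha of 0.66, Inha and Inhba of 0.62 and Hsd3b1 and Inhba of 0.57. These were the 5 of 36 pairs above 0.5, and the median over the pairs was 0.08. Star was between, at 0.45 with Cyp11a1, 0.38 with Hsd3b1 and 0.35 with Inha. Fshr ran from -0.27 with Star to 0.20 with Foxl2, and was at -0.19 with Cyp11a1, 0.06 with Hsd3b1 and 0.09 with Inha. Cyp19a1 was negative with all 8 others, from -0.49 with Amh to -0.05 with Inhba. With mouse means taken off log2(CPM + 1), Pearson's correlation of Cyp19a1 was 0.21 with Inhba, 0.04 with Foxl2 and -0.04 with Inha, so the sign with the first 2 did not hold. The rho of Cyp19a1 with the summed oocyte list was -0.54, farther from 0 than with any other member. Over the other settings, with each mouse left out in turn among them, it ran from -0.59 to -0.47. All values are descriptions over oocytes that share 9 mice and each oocyte's total, and CPM of an oocyte sum to a fixed total, so genes are not free of each other.

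**Figure D3:**
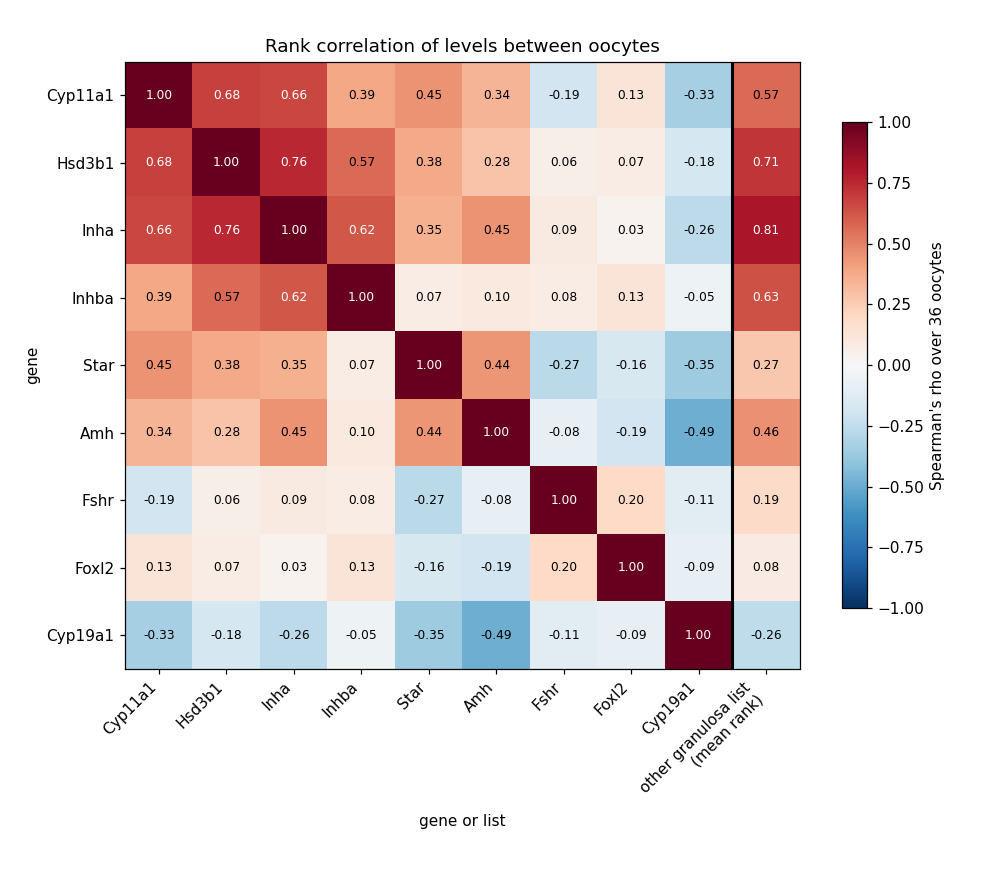
Spearman's rho over 36 oocytes for each pair of the 9 genes (rows and columns), with a last column for the mean rank of 24 other granulosa genes; red is positive and blue negative. Cyp11a1, Hsd3b1, Inha and Inhba form the red corner, with Hsd3b1 and Inha at 0.76. Outside its own cell the Cyp19a1 row is negative, though close to 0 for Inhba (-0.05) and Foxl2 (-0.09).

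Part of this lay between mice and part within them. With the mean of each mouse taken off log2(CPM + 1), Pearson's correlation was 0.71 for Cyp11a1 and Hsd3b1, 0.69 for Hsd3b1 and Inha and 0.41 for Cyp11a1 and Inha, so within animals too the enzymes went up and down together. It was 0.38 for Inha and Inhba and -0.00 for Cyp11a1 and Inhba, so this last pair kept no relation within animals. For Cyp11a1 it was -0.37 with Fshr and -0.24 with Cyp19a1. In tubes 1 to 15 alone, Spearman's rho was 0.77 for Hsd3b1 and Inha, 0.73 for Cyp11a1 and Hsd3b1 and 0.63 for Cyp11a1 and Inha, 0.48 for Inha and Inhba and 0.15 for Cyp11a1 and Inhba.

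A list of 24 other granulosa and cumulus genes held both steady and uneven transcripts. Of its 13 genes with a mean of at least 1 CPM, 7 had a CV under 0.5 beside 78.9% of all genes at that level, and 4 had one of at least 0.8 beside 4.27%. Serpine2, a secreted protease inhibitor, stood at 431 CPM with a CV of 0.258, and Esr2, the oestrogen receptor of granulosa cells, at 235 CPM with a CV of 0.187. Fdx1, which passes electrons to the side-chain cleavage enzyme, stood at 34.8 CPM with a CV of 0.371, and Nr5a2 at 32.8 CPM with a CV of 0.212. Cdh2, Kitl and Gata4 were the 3 others under 0.5. Of genes of similar level, 73.2% had a lower CV than Serpine2 and 82.8% a lower one than Fdx1, both with an extreme value in tube 10 of mouse b. The uneven genes, at 0.8 or above, were Gja1 (3.18 CPM, CV 1.34), Inhbb (1.39 CPM, CV 1.70), Hsd17b1 (1.65 CPM, CV 1.12) and Igfbp5 (1.01 CPM, CV 0.877). Wt1, Pappa, Slc38a3, Nr0b1 and Amhr2 were at 0 in at least 18 oocytes. The genes outside the rule for names (the 4 most abundant of each list) are named here after their values were seen.

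Gja1, which encodes connexin 43, the gap junction protein of granulosa cells, followed Inha most closely. Among 11511 other genes of at least 1 CPM, Gja1 had the highest Spearman correlation with Inha, 0.90 over 36 oocytes, 0.89 without tube 10 of mouse b and 0.89 in tubes 1 to 15. With mouse means taken off, Pearson's correlation on log2(CPM + 1) was 0.76. Gja1 ran from 0 counts in 3 oocytes to 20.2 CPM in tube 10 of mouse b, with a median of 1.61 CPM. Hsd17b1, which makes oestradiol from oestrone, had a rho of 0.75 with Inha and 0.60 with Hsd3b1, and Inhbb, the beta B subunit of inhibin and activin, had 0.61 with each. Igfbp5 was lower, at 0.30 with Inha, 0.20 with Hsd3b1 and 0.31 with Cyp11a1. Cyp11a1 and Inhbb had a rho of 0.35, which was 0.17 in tubes 1 to 15, and 0.10 as Pearson's correlation with mouse means taken off. Gja1, Hsd17b1 and Inhbb stood at -0.10, -0.10 and 0.30 with Cyp19a1, and at 0.21, -0.18 and 0.14 with Fshr. Cyp19a1 and Inhbb had a rho of 0.38 in tubes 1 to 15, and a Pearson correlation of 0.46 with mouse means taken off. Inha and Hsd3b1 were thus high where Gja1, Hsd17b1 and Inhbb were high, while Cyp19a1 rose and fell with Inhbb alone of these 3, and weakly.

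**Figure D4:**
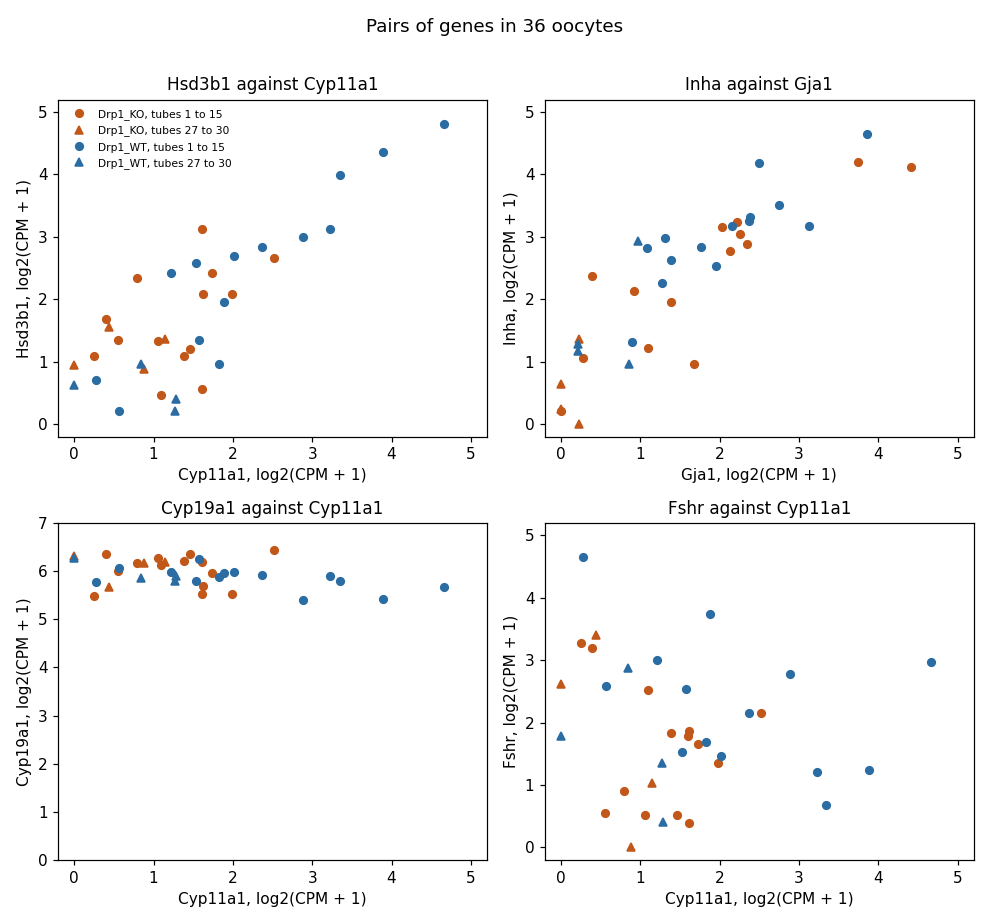
Pairs of genes in log2(CPM + 1) on both axes, with a point for each of 36 oocytes; colour gives the label and triangles mark tubes 27 to 30. Hsd3b1 climbs with Cyp11a1 (rho 0.68) and Inha with Gja1 (rho 0.90). Against Cyp11a1, Cyp19a1 lies in a narrow band with a negative rho (-0.33), and Fshr climbs with it in no clear way (rho -0.19).

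With each listed gene given equal weight by its rank, the 24 genes together had a rho of 0.81 with Inha, 0.71 with Hsd3b1, 0.63 with Inhba, 0.57 with Cyp11a1, 0.46 with Amh, 0.27 with Star, 0.19 with Fshr and -0.26 with Cyp19a1. This weighting was added after the data were seen, because the summed CPM of the list is mostly Serpine2 and Esr2. With summed CPM, rho was 0.39 for Cyp11a1, 0.43 for Hsd3b1, 0.34 for Inha, 0.29 for Inhba and -0.06 for Cyp19a1. With mouse means taken off, the log2 of that sum had a Pearson correlation of -0.11 with Inha, -0.07 with Hsd3b1 and -0.38 with Inhba, so these 3 reversed. With equal weights and mouse means taken off, also added after the data were seen, the correlation was 0.76 for Inha, 0.69 for Hsd3b1, 0.39 for Cyp11a1, 0.34 for Inhba and -0.26 for Cyp19a1. Whether adhering granulosa cells, their projections or the oocyte itself carried the uneven transcripts was not tested.

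Markers of other cell types differed in level. Of 10 genes of cumulus expansion, 4 (Ptx3, Tnfaip6, Areg and Ereg) were at 0 in all oocytes and the summed level was at most 3.77 CPM. The summed level was at most 4.52 CPM for 4 theca genes, 12.5 CPM for 6 stromal genes, 8.02 CPM for 4 epithelial genes and 0.852 CPM for 5 red blood cell genes. It was 30.3 to 79.8 CPM for 4 endothelial genes, with a median of 48.9 CPM, above the median of 15.6 CPM for the 8 members other than Cyp19a1. This endothelial sum was mostly Pecam1 (mean 36.8 CPM) and Tek (10.5 CPM). Kdr had a mean of 1.40 CPM, and Cdh5 was at 0 in all 36 oocytes. The immune genes were high in tube 10 of mouse b, where Inhba (4.5 CPM), Gja1 (20.2 CPM) and Inhbb (11.2 CPM) had their highest oocyte and Hsd3b1 (7.77 CPM) and Inha (16.3 CPM) were high too. That oocyte also had the lowest summed level of the oocyte list, 15505 CPM. Serpine2 stood at 20.2 CPM there, against 252 to 599 CPM in the 35 other oocytes, and Esr2 at 72.1 CPM against 188 to 345 CPM. Cyp19a1, at 72.1 CPM, stayed inside the range of the other oocytes, so in this library it did not go down with Serpine2 and Esr2. Of the other granulosa genes with a CV under 0.5, Nr5a2, Cdh2 and Gata4 also stayed inside their ranges there. Kitl and Fdx1 lay above theirs.

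The tubes 27 to 30, of mice d and 5, were low in the uneven genes. In these 8 oocytes the median of Inhba was 0 CPM, with 7 of 8 at 0 counts, against 0.797 CPM in the 28 oocytes of tubes 1 to 15. The medians were 1.10 against 6.30 CPM for Inha, 0.882 against 3.24 CPM for Hsd3b1 and 0.819 against 2.05 CPM for Cyp11a1. Of the listed genes, Gja1 stood at 0.164 against 2.97 CPM and Inhbb at 0.0675 against 1.23 CPM. Cyp19a1 (64.8 against 61.5 CPM), Fshr (2.00 against 2.51 CPM) and Star (0.702 against 1.18 CPM) differed less. Tube numbers and these 2 mice cannot be told apart, and the labels do not say what the numbers mark.

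By rank over the 36 oocytes, the genes most like Cyp19a1 among 11511 others of at least 1 CPM were Cenpn (rho 0.77), a centromere protein, Chek1 (0.71), a checkpoint kinase, Eed (0.71), a Polycomb subunit, Cept1 (0.71), a phospholipid transferase, and Mtpap (0.69), the mitochondrial poly(A) polymerase. These have means of 278 to 1059 CPM. The other 5 members of at least 1 CPM stood at places 5135 to 8577 in that order. For Cyp11a1, the first 5 were Traf7 (0.72), Phf1 (0.72), Dcun1d3 (0.71), Gipc1 (0.70) and Plekho1 (0.70), with Hsd3b1 at place 11 and Inha at place 14, and Cyp19a1 at place 10131. For Inha, Gja1 was followed by Tceal9 (0.83), Mt1 (0.78), Socs2 (0.78) and Hsd3b1 (0.76), and Cyp11a1 stood at place 13. For Fshr the first was Chchd5 (0.65) and the second Rbm15 (0.54), with Inha at place 3823 and Hsd3b1 at place 4470. The lists for Inha, Hsd3b1 and Fshr were added after the data were seen.

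Other genes of cholesterol supply and steroid synthesis were present at a range of levels. Of 25 listed, 18 had a mean of at least 1 CPM, and 12 of these had a CV under 0.5 and 3 a CV of at least 0.8, where all genes at that level gave 78.9% and 4.27%. The most abundant were Npc1 (149 CPM) and Npc2 (101 CPM), which export cholesterol from lysosomes, and Soat1 (73.6 CPM), which esterifies it. Of 20 receptors and partners of the member hormones, 16 had at least 1 CPM and 13 of these a CV under 0.5, near the share over all genes. Esr2, Bmpr1b (163 CPM), Smad2 (142 CPM) and Bmpr2 (78.5 CPM) led them. Lhcgr, the receptor for luteinising hormone, stood at 0.466 CPM with 10 oocytes at 0.

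The comparison of the labels asks whether these transcripts differ in oocytes labelled as lacking Drp1, the GTPase that divides mitochondria. It was run on counts summed per mouse with edgeR's quasi-likelihood test, which tested 7 of the 9 genes. Amh and Foxl2 did not pass its filter on low counts. None of the 7 passed a Benjamini-Hochberg adjusted p of 0.05, against 2 of 12812 genes tested (0.0156%), and DESeq2 (38 of 13775 genes, 0.276%) called 0 of the 7 as well. Limma-voom on single oocytes (9 of 10658, 0.0844%) called 0 of the 5 it tested, which left out Star and Inhba. At an unadjusted p under 0.05, 1 of 7 passed in edgeR, beside 9.69% of all genes. The log2 fold change was negative, lower in Drp1_KO, for 6 of 7, beside 6480 of 12812 genes tested. Its median was -0.54 over the 7 and -0.00 over all genes tested.

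Cyp11a1 had the largest difference by edgeR. Its 18 oocytes labelled Drp1_KO ran from 0 to 4.72 CPM (median 1.17) and the 18 labelled Drp1_WT from 0 to 24.4 CPM (median 2.26). The ranges overlap, and 5 oocytes labelled Drp1_WT lie above every oocyte labelled Drp1_KO. Among these 5 are tubes 11 and 12 of mouse 3, whose Dnm1l goes against the label. Mouse means were 1.38 ± 0.631 CPM (SD, n = 4) against 4.89 ± 4.13 CPM (SD, n = 5). The log2 fold change was -1.70 (SE 0.55), with an unadjusted p of 0.00836 and an adjusted p of 0.499 by edgeR, and over the alternatives the adjusted p ran from 0.114 to 0.790. With each mouse left out in turn the estimate ran from -1.99 to -1.12, and it was -1.01 with limma-voom. Without Drp1_WT tubes 11 to 15 it was -1.57 by edgeR.

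Hsd3b1 ran from 0.378 to 7.77 CPM (median 1.56) in Drp1_KO and from 0.156 to 27.1 CPM (median 3.60) in Drp1_WT. Mouse means were 2.32 ± 0.854 against 6.09 ± 5.81 CPM (SD, n = 4 and 5). The log2 fold change was -1.31 (SE 0.64, adjusted p = 0.523 by edgeR), and -0.62 without mouse 1, which holds 2 of the 3 highest oocytes, and -0.44 with limma-voom. For both enzymes the difference between labels was of the size of the spread between mice of the Drp1_WT label.

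Cyp19a1 was the 1 gene with a positive estimate, 0.24 (SE 0.11, unadjusted p = 0.0534, adjusted p = 0.517 by edgeR). The estimate was 0.14 without Drp1_WT tubes 11 to 15, which go against their label. It was 0.10 with tube 10 of mouse b and Drp1_WT tube 29 left out as well. With each mouse left out in turn it ran from 0.18 to 0.30. Oocytes labelled Drp1_KO ran from 43.5 to 86.2 CPM (median 70.9) and those labelled Drp1_WT from 41.2 to 76.3 CPM (median 58). Mouse means were 66.3 ± 2.50 against 58.2 ± 4.16 CPM (SD, n = 4 and 5). By own totals the mice did not overlap, at 64.1 to 68.9 against 53.1 to 62.3 CPM, as for 2.85% of all genes tested. With TMM scaling they overlapped, at 59.8 to 76.2 against 51.9 to 64 CPM.

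By edgeR on all mice, the other genes gave estimates nearer 0 than those of the 2 enzymes. This order depended on the fit. With limma-voom the log2 fold change was -1.17 for Inha and -0.81 for Fshr, against -1.01 for Cyp11a1 and -0.44 for Hsd3b1. Without mouse 1, edgeR gave -0.74 for Fshr and -0.62 for Hsd3b1. Fshr stood at 3.08 ± 0.587 against 4.94 ± 3.29 CPM (log2 -0.61, SE 0.38, adjusted p = 0.578 by edgeR) and Inha at 4.51 ± 3.60 against 7.02 ± 3.95 CPM (log2 -0.54, SE 0.57, adjusted p = 0.735). Inhba stood at 0.817 ± 0.740 against 1.16 ± 0.818 CPM and Star at 1.19 ± 0.613 against 1.41 ± 0.504 CPM, with adjusted p of 0.866 and 0.921 by edgeR. With each mouse left out in turn, the log2 fold change ran from -1.17 to -0.18 for Inha, from -1.10 to -0.018 for Inhba and from -0.85 to -0.25 for Fshr. For Star the estimate, -0.11 (SE 0.36), turned to 0.16 without the 5 libraries that go against their label.

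**Figure D5:**
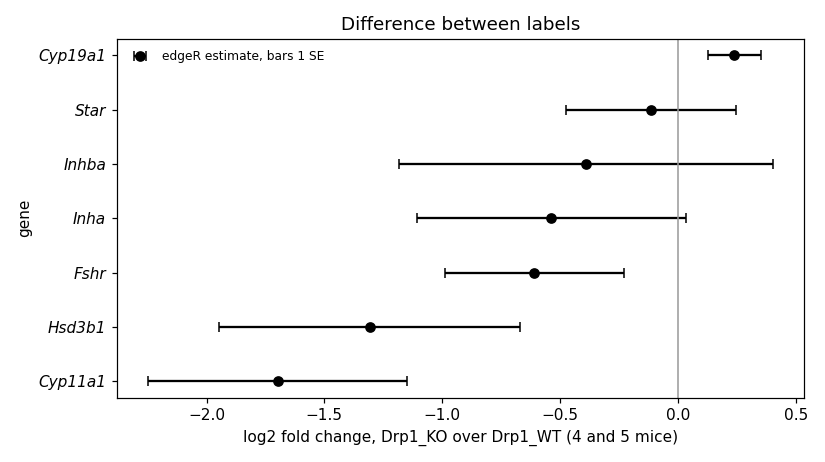
Log2 fold change of the 7 tested genes, Drp1_KO over Drp1_WT (horizontal axis), by gene (vertical axis); points are edgeR estimates from 4 and 5 mice and bars are 1 SE. Cyp11a1 (-1.70) and Hsd3b1 (-1.31) lie farthest from 0 and Cyp19a1 (0.24) is the only one above it, and none passed the adjusted threshold.

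Of the other granulosa genes, 16 of 24 were tested and 0 were called, with 0 at an unadjusted p under 0.05 and a median log2 fold change of 0.09. Of the steroid list 20 of 25 were tested and 0 were called, with a median of -0.22. At an unadjusted p under 0.05 by edgeR, 4 were lower, as were 616 of all 12812 genes tested. Of the hormone signalling list 18 of 20 were tested and 0 were called. At an unadjusted p under 0.05 by edgeR, 1 was higher, as were 626 of all 12812. DESeq2 and limma-voom called 0 in each of the 3 lists. Gja1, the gene most like Inha, stood at 2.96 ± 3.35 against 2.95 ± 2.32 CPM (SD, n = 4 and 5).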

How the data were processed

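Each oocyte was lysed and its cDNA made with a SMARTer Ultra Low Input kit, with Nextera XT libraries read single-end on a HiSeq, per the labels' protocols. STAR, featureCounts, Subread 1.5.2, Picard and GRCm38 are named in the submitters' processing notes, with no role for each. The authors deposited raw counts of 21968 genes by 36 oocytes. How strand and multiply matching reads were handled is not given in the sources used here, so antisense and near-identical genes cannot be told apart. IDs were named from GENCODE M21 (21876 matched).

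The members and lists were chosen with earlier results of these data known. CPM used each oocyte's own total, and CV, Spearman's rho and ranges are descriptions. Genes named are the 9 members, the 4 most abundant of each list and the 5 most like Cyp19a1 and Cyp11a1; others were named after their values were seen. Some listed genes are not reported here by name. 11 lists of 108 genes were used: granulosa, cumulus expansion, steroid synthesis, hormone signalling, oocyte, theca, stroma, endothelium, immune, epithelium and blood. Nothing says whether mice were matched.

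Labels were compared on counts summed per mouse with edgeR 4.0.16 (R 4.3.3; TMM, filterByExpr, robust quasi-likelihood fit, Benjamini-Hochberg over all genes tested, threshold 0.05). Alternatives used DESeq2 1.42.0, limma 3.58.1 voom with mouse as a random effect, other scaling and filters. Others left libraries out, thinned oocytes to 3178509 counts, left each mouse out or added the tube set as a term. Oocyte totals of 3178509 to 7406895 counts set the floors. The scripts were tested on simulated data.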

Additional observations from a re-analysis of the deposited data

How the results depend on the processing

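Under each alternative run, 0 of the members and 0 of the other listed genes that the fit tested passed the threshold. Amh and Foxl2 were tested by edgeR only with no filter on low counts, and limma-voom tested 5 members. Over all genes the count was 2, and it was 38 with DESeq2, 9 with limma-voom, 4 in tubes 1 to 15 alone and from 1 to 3 with each mouse left out (1 without mouse 2, 3, a or b in turn). The cause was not tested. Of the log2 fold changes, only that of Star reversed: it was 0.16 without Drp1_WT tubes 11 to 15, 0.060 in tubes 1 to 15, 0.19 without these tubes, tube 10 of mouse b and Drp1_WT tube 29, and -0.42 to 0.067 with each mouse left out. The CV of Cyp19a1 was 0.181 to 0.205 and that of Cyp11a1 1.22 to 1.65 with each mouse left out. With TMM factors per oocyte the CVs were 0.261 for Cyp19a1 and 1.47 for Cyp11a1. The rho of Cyp11a1 with the granulosa list, 0.39, was 0.57 with equal weights and 0.083 as a Pearson correlation with mouse means taken off, and that of Cyp19a1 went from -0.06 to -0.26 with equal weights, with or without mouse means taken off. No paired analysis was possible because mice of the labels carry letters and numbers, which name no pairs. Depth limits Inhba, whose level lies near the worth of 3 counts, and Amh and Foxl2, whose means lie below the worth of 1 count. Dixon's gap test on the mouse means of the 9 genes in each label (18 groups) picked 0.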
